A study of Mus musculus with 6 samples.

Results

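Cells make cholesterol from acetyl-CoA through the mevalonate pathway and the sterol steps that follow it. When sterols in the endoplasmic reticulum run low, the transcription factor SREBP-2 is released and switches these genes on together, whereas INSIG proteins hold the SREBP complex back when sterols are plentiful. In the brain, which makes its own cholesterol because lipoproteins of the blood barely cross its barrier, astrocytes supply cholesterol to other cells and oligodendrocytes need large amounts of it for myelin.

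The genes described here were 7 enzymes of this pathway and 1 of its regulators: Hmgcs1, Idi1, Fdps, Fdft1, Sqle, Cyp51, Msmo1 and Insig1. They were chosen by name, and all 8 were found among 16411 listed genes, of which 15217 had a UMI (unique molecular identifier, a counted molecule) in these cells. Single hypothalamic cells were profiled from ob/ob mice, which lack leptin and are obese. The animals were male, 11 weeks old, and each had been given 3 µg of the FGF1 mutant R50E by intracerebroventricular (icv) injection 5 days earlier. All 6 labelled samples, 1 mouse in each, belong to this single group, and the data hold cells of 4 of them, mice 3, 4, 30 and 34. The other two, mice 12 and 37, were not analysed here. The labelled samples include no control, so the injection itself could not be assessed, and all comparisons are between cell types of the same mice.

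The 20151 cells carried 9 cell type labels given by the authors: 1261 oligodendrocyte precursor cells (OPCs), 681 cells labelled COP, taken here as committed oligodendrocyte precursors, 4566 oligodendrocytes, 5909 astrocytes, 4490 tanycytes, 1530 ependymal cells, 1266 endothelial cells, 380 microglia and 68 cells labelled VLMC. Of the markers listed for each type, 5 of 5 were highest in their own type for 7 types, and 4 of 5 for OPCs and for tanycytes. Between 3005 and 7386 cells and between 3299971 and 8856079 UMIs came from a mouse, and the median cell held 909 to 1066 UMIs. Only 194 of 19954 distinct barcodes occurred in more than 1 library. Mouse 30 stood apart: in its ependymal cells Cxcl10 reached 3731 CPM (the UMIs of a gene scaled to a fixed total, defined below) against 0, 0 and 38.5 in mice 3, 4 and 34, and over all its cells Ddx3y was at 45.5 CPM against 111 to 120 CPM. Values without mouse 30 are therefore given where it mattered.

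Promoter sequence was looked at because a shared sterol regulatory element would be the classical link between these genes. RefSeq promoter windows (GRCm38.p6, the 250 bases before the start) were at hand for 5 of the 8 genes, Hmgcs1, Idi1, Cyp51, Msmo1 and Insig1, and none for Sqle, Fdps or Fdft1. Both strands were searched for TCACNCCAC, the core of a sterol regulatory element, for CCAAT, the box bound by NF-Y, and for GGGCGG, the GC box bound by SP1. No match overlapped another. TCACNCCAC was found only in the window of Hmgcs1, between 137 and 129 bases before the start, and in 1.05% of all 32851 windows. CCAAT occurred in all 5 windows and in 33.9% of all windows, and GGGCGG in all 5 and in 32.7%. A match is only a run of letters, and its absence from a window says nothing of the factor. The stretches below are those for Hmgcs1, the gene with a match to TCACNCCAC, and for Cyp51 and Insig1. The windows of Cyp51 and Insig1 had a GC box and, outside the stretch shown, a CCAAT, but no match to TCACNCCAC. Other forms of the sterol element were not searched for. They run 5′ to 3′ in the direction of the gene, with matches to the motifs in capitals (CCGCCC and ATTGG are GGGCGG and CCAAT read on the other strand). They cover chr13:119690201-119690350 (+ strand) for Hmgcs1, chr5:4104747-4104847 (- strand) for Cyp51 and chr5:28071262-28071362 (+ strand) for Insig1.
Hmgcs1: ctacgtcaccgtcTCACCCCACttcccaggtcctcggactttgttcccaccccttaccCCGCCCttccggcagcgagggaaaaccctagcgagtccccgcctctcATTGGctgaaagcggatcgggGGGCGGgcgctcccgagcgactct
Cyp51: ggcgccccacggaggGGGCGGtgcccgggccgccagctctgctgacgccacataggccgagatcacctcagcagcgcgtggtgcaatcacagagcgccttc
Insig1: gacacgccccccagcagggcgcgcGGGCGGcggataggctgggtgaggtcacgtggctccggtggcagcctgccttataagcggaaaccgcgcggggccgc

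Levels are given as CPM, counts per 1000000 UMIs of all genes in the summed cells of 1 type and 1 mouse. Summed over the 8 genes, oligodendrocytes held 889 ± 33.2 CPM (SD, n = 4) and astrocytes 828 ± 135 CPM. Their ranges overlapped, and the astrocyte spread came mostly from mouse 30, whose astrocytes held 630 CPM against 870 to 937 CPM in the other three mice. COPs held 685 ± 81.1 CPM and OPCs 665 ± 72.6 CPM, with overlapping ranges. Tanycytes, the elongated glia of the ventricle floor, held 466 ± 41.2 CPM. Microglia held 305 ± 69.9, the ciliated ependymal cells 279 ± 28.3 and endothelial cells 245 ± 26.9 CPM. VLMC-labelled cells were left out of this order, because 44 of their 68 cells came from mouse 30, where the sum was 737 CPM and single genes ranged from 23.8 CPM for Fdft1 (2 UMIs) to 190 CPM for Insig1 (16 UMIs). A lower level in a type is a smaller share of its RNA, and the order changed when UMIs were counted per cell. COPs, whose median cell held 1081 to 2403 UMIs depending on the mouse, then came first. Pooled over mice, they had 130 UMIs of the 8 genes per 100 cells, ahead of oligodendrocytes with 112 and astrocytes with 81.2. Mouse 4 alone had more per cell in oligodendrocytes (977 UMIs in 865 cells) than in COPs (190 UMIs in 196 cells).

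**Figure D1:**
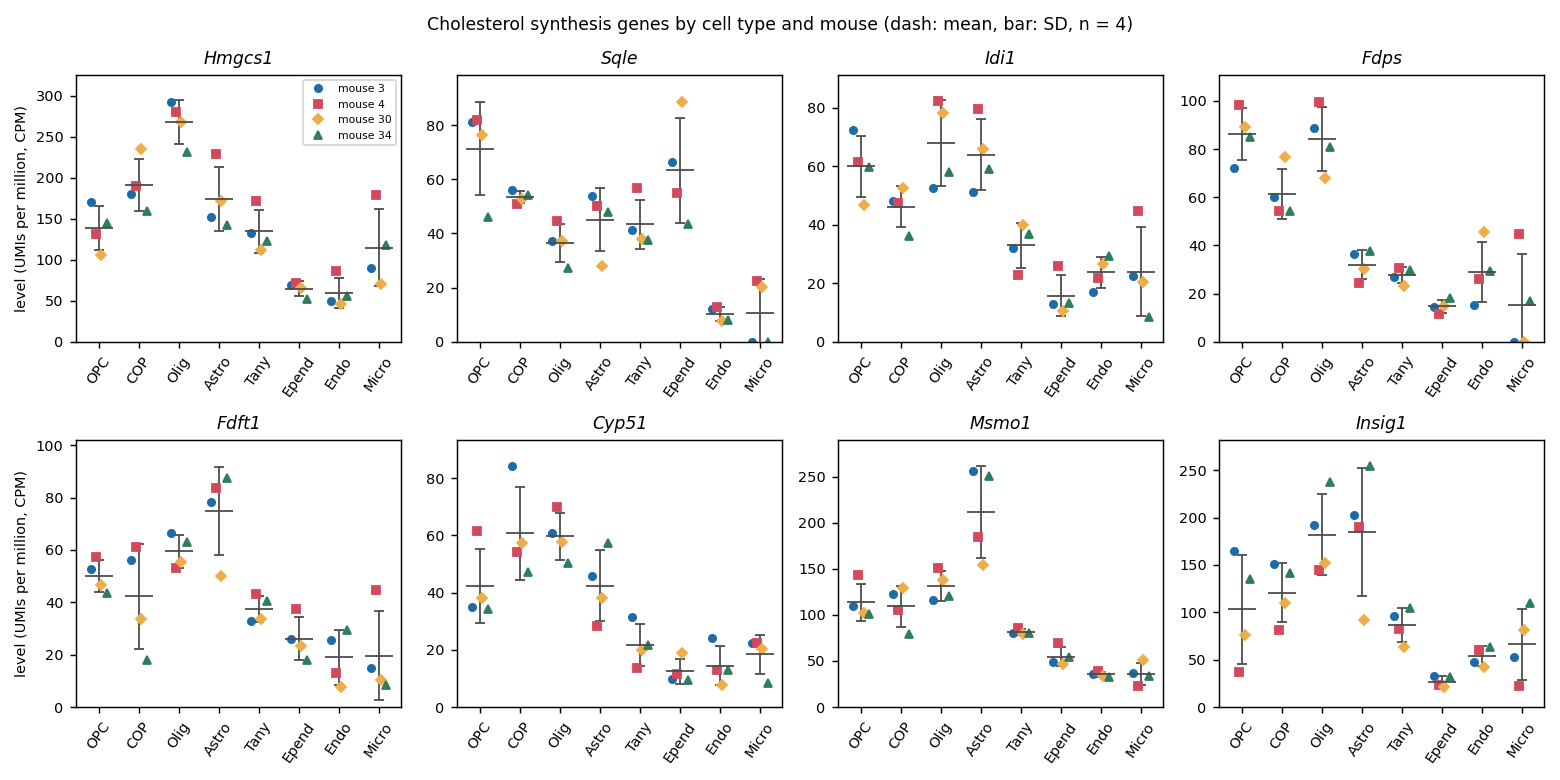
Level (CPM, linear axis from 0) of each of the 8 genes by cell type, 1 symbol per mouse, with the mean as a dash and the SD as a bar (n = 4). Hmgcs1 is highest in oligodendrocytes (268 CPM), Msmo1 in astrocytes (212 CPM) and Fdps in the 3 types of the oligodendrocyte lineage, while Sqle lies between 36.4 and 71.3 CPM in the 6 types other than endothelial cells and microglia.

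Hmgcs1, the synthase that makes HMG-CoA at the head of the pathway, was ordered from oligodendrocytes (268 ± 26.7 CPM, SD, n = 4) to COPs (191 ± 31.6), astrocytes (174 ± 38.7), OPCs (138 ± 26.9), tanycytes (134 ± 25.9), microglia (114 ± 47.0), ependymal cells (64.7 ± 9.10) and endothelial cells (59.4 ± 18.7). Each type overlapped its neighbour in this order. In oligodendrocytes mice 3, 4, 30 and 34 stood at 293, 280, 267 and 231 CPM, and in OPCs at 171, 131, 106 and 145 CPM. Every oligodendrocyte value lay above every OPC value.

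Idi1 and Fdps act next, on the isoprenoid units. Idi1, the isomerase of isopentenyl diphosphate, was at 67.8 ± 14.7 CPM in oligodendrocytes, 64.0 ± 12.1 in astrocytes and 60.0 ± 10.5 in OPCs, and these did not separate. It fell off to 46.1 ± 6.99 CPM in COPs, 32.9 ± 7.59 in tanycytes, 24.0 ± 15.1 in microglia, 23.7 ± 5.43 in endothelial cells and 15.7 ± 6.98 in ependymal cells. Fdps, which makes farnesyl diphosphate, was highest in the oligodendrocyte lineage, first in OPCs or, without mouse 30, in oligodendrocytes. OPCs stood at 72.3, 98.4, 89.2 and 84.9 CPM in mice 3, 4, 30 and 34, oligodendrocytes at 88.8, 99.4, 67.9 and 80.7 CPM, and COPs at 60.2, 54.3, 76.6 and 54.3 CPM. Astrocytes stood at 36.3, 24.4, 30.0 and 37.5 CPM, below every value of the 3 lineage types. Endothelial cells (29.1 ± 12.5 CPM) and tanycytes (27.6 ± 3.34) overlapped astrocytes, and ependymal cells held 14.7 ± 2.65 CPM. In GENCODE M21 a second coding gene, Gm43738, lies over Fdps on the same strand and is not among the listed genes, so that reads of the pair may have been divided or lost.

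Fdft1 (squalene synthase) and Sqle (squalene epoxidase, the first oxygen-using step) commit the carbon to sterols. Fdft1 was at 74.9 ± 17.0 CPM in astrocytes, 59.5 ± 6.23 in oligodendrocytes, 50.1 ± 6.14 in OPCs and 42.2 ± 20.1 in COPs, each overlapping the next, then 37.5 ± 4.99 in tanycytes, 26.2 ± 8.25 in ependymal cells, 19.6 ± 17.0 in microglia and 18.9 ± 10.3 in endothelial cells. Sqle was ordered differently. OPCs stood at 81.0, 82.0, 76.4 and 45.9 CPM in mice 3, 4, 30 and 34, ependymal cells at 66.3, 54.9, 88.6 and 43.3 CPM, and oligodendrocytes at 37.1, 44.5, 37.0 and 27.1 CPM. Oligodendrocytes, first for Hmgcs1 and Idi1, were thus sixth of 8 types for Sqle. Their range overlapped those of tanycytes (37.5 to 56.7 CPM) and astrocytes (28.0 to 53.9 CPM), and without mouse 30 OPCs were first for Idi1. Only endothelial cells (10.2 ± 2.70 CPM) and microglia, with 3 UMIs in all, were lower.

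Cyp51 and Msmo1 remove methyl groups from lanosterol and its products. Cyp51, the lanosterol demethylase, was at 60.8 ± 16.3 CPM in COPs and 59.7 ± 8.16 in oligodendrocytes, 42.4 ± 12.4 in astrocytes and 42.3 ± 12.9 in OPCs. It was 21.7 ± 7.38 CPM in tanycytes, where all 4 mice lay below all OPC values, and between 12.5 and 18.4 CPM in microglia, endothelial and ependymal cells. Msmo1, the sterol methyl oxidase, was highest in astrocytes. Astrocytes stood at 256, 185, 154 and 251 CPM in mice 3, 4, 30 and 34 and oligodendrocytes at 116, 151, 138 and 120 CPM, with no overlap. In tanycytes it was nearly the same in each mouse, 79.0 to 86.2 CPM, above the 54.6 ± 10.3 CPM of ependymal cells.

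Insig1, the sterol-regulated brake on SREBP processing, was at 185 ± 67.8 CPM in astrocytes and 182 ± 42.8 in oligodendrocytes, then 121 ± 31.4 in COPs, 103 ± 57.4 in OPCs and 86.6 ± 18.0 in tanycytes. Ependymal cells held 27.0 ± 5.68 CPM, below every endothelial value (53.5 ± 10.4 CPM), and microglia 66.4 ± 37.5 CPM. Within OPCs it ranged from 36.9 CPM (9 UMIs) in mouse 4 to 164 CPM in mouse 3.

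Types were compared in pairs on the summed UMI counts with edgeR's quasi-likelihood test, with mouse as a block, over all genes that passed a filter on low counts. All 8 genes passed it in all 9 comparisons. To be called, a gene needed a Benjamini-Hochberg adjusted p under 0.05 together with a log2 fold change beyond 1 in either direction. Fold changes are after TMM scaling, which sets the median gene near 0, so that they need not equal ratios of CPM. The authors named the types from expression, so the tests compare groups that were themselves drawn from these counts.

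The first question was how the genes differ along the lineage from OPC through COP to oligodendrocyte. From OPC to COP none of the 8 was called, against 11% of all 6010 genes tested called higher and 15.2% called lower. DESeq2 also called none, and 2 of the 8 had an unadjusted p below 0.05. Without the fold limit, 2 of the 8 passed higher and none lower, where 22.1% of all genes passed higher and 23.9% lower. These were Hmgcs1 (log2 fold change 0.45 ± 0.15, SE, adjusted p = 0.0116, higher in 4 of 4 mice) and Cyp51 (0.70 ± 0.26, adjusted p = 0.0191, higher in 3 of 4). Both missed the threshold with DESeq2. Hmgcs1 also missed it without mouse 30, and Cyp51 without mouse 3 or mouse 34 or without the cells of highest doublet score. With plain library totals in place of TMM neither passed (0.35 and 0.59), and Fdps passed lower (-0.51). The median over the 8 was -0.07, beside 0.00 over all genes.

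From COP to oligodendrocyte again none of the 8 was called, with 14.3% of 7293 genes called higher and 13.3% lower, and DESeq2 called none. All the same, 6 of the 8 passed the adjusted p higher and none lower, beside 27.5% and 24.4% of all genes, and 6 had an unadjusted p below 0.05. Insig1 was up by 0.88 ± 0.13 (SE, adjusted p = 5.14e-08, 4 of 4 mice), Hmgcs1 by 0.84 ± 0.12 (adjusted p = 5.28e-09, 4 of 4) and Idi1 by 0.80 ± 0.20 (adjusted p = 0.000539, 4 of 4). Fdps (0.83), Fdft1 (0.75) and Msmo1 (0.55) passed with 3 of 4 mice higher, Fdft1 not with DESeq2 and not without mouse 34. Sqle (-0.26 ± 0.22, adjusted p = 0.321, lower in 4 of 4 mice in CPM, with ranges that did not overlap) and Cyp51 (0.21 ± 0.19, adjusted p = 0.366) did not pass. When the sums of each mouse were thinned to equal totals, all of the 6 but Hmgcs1 missed the adjusted p, with values of 0.83 for Idi1, 0.91 for Fdps, 0.61 for Insig1, 0.44 for Msmo1 and 0.43 for Fdft1. With plain library totals in place of TMM the median of all genes stood at -0.30, Sqle passed lower (-0.58), Fdft1 (0.44) and Msmo1 (0.23) did not pass and Cyp51 was at -0.10. The median over the 8 was 0.78, beside 0.02 over all genes.

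Between the ends of the series, oligodendrocytes against OPCs, Hmgcs1 and Insig1 were called higher, 2 of 8, where 12% of 7910 genes were called higher and 16.9% lower. Hmgcs1 differed by 1.32 ± 0.12 (SE, adjusted p = 1.37e-19) and Insig1 by 1.16 ± 0.14 (adjusted p = 1.75e-13), each in 4 of 4 mice. Without the fold limit 7 of 8 passed higher and 1 lower, beside 26.1% and 27% of all genes. Cyp51 (0.97), Fdft1 (0.73), Msmo1 (0.61), Idi1 (0.46) and Fdps (0.45) were the others on the higher side, though in CPM only 2 of 4 mice had more Idi1 or Fdps in oligodendrocytes. Sqle was the one on the lower side, at -0.54 ± 0.20 (adjusted p = 0.0152, lower in 4 of 4 mice), and its ranges did not overlap. It missed the adjusted p without mouse 3 or mouse 30, Idi1 without mouse 4, 30 or 34 and Fdps without mouse 3. With DESeq2, and with sums thinned to equal totals, Sqle, Idi1, Fdps and Fdft1 all missed it, and Fdft1 was at 0.11 when thinned. With plain library totals in place of TMM the median of all genes stood at -0.48 and none of the 8 was called, since Hmgcs1 (0.87) and Insig1 (0.71) stayed past the adjusted p but not the fold limit. Cyp51 (0.52) and, on the lower side, Sqle (-0.99) also passed the adjusted p then, whereas Idi1 (0.01), Fdps (-0.0031), Fdft1 (0.27) and Msmo1 (0.16) did not.

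**Figure D2:**
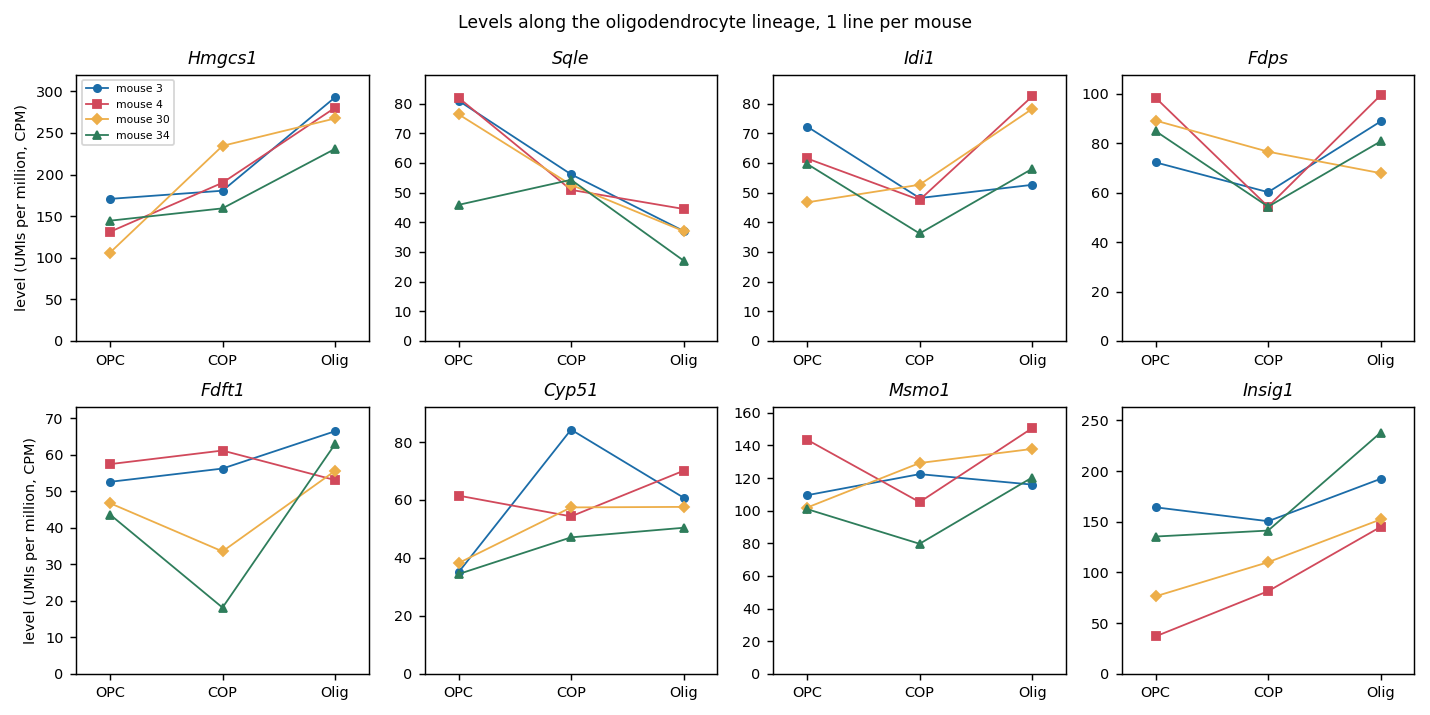
Level (CPM, linear axis from 0) of each gene in OPCs, COPs and oligodendrocytes (Olig), with 1 line per mouse. Hmgcs1 is higher in oligodendrocytes than in OPCs in every mouse, from 138 to 268 CPM in the mean, and Sqle is lower in every mouse, from 71.3 to 36.4 CPM.

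Of 15 other synthesis genes, 13 were tested from COP to oligodendrocyte, 3 were called higher and 3 lower, where 14.3% of all genes were called higher and 13.3% lower. Ebp (1.78), Lbr (1.68) and Sc5d (1.23), all late sterol enzymes, were higher, and Mvd, which makes isopentenyl diphosphate, was lower (-1.06 ± 0.30, SE, adjusted p = 0.00205).

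Between oligodendrocytes and OPCs, 3 of 8 tested sensing and uptake genes were called higher and none lower, where 12% of all genes were called higher and 16.9% lower. They included the lysosomal cholesterol transporters Npc1 (1.17) and Npc2 (1.45), and the other 5 were not called. Of 9 fatty acid synthesis genes, 5 were called higher and none lower, with a median of 1.03, beside -0.03 over all genes. These values too are after TMM, and with plain library totals the median gene stood 0.45 lower on the log2 scale. Scd2, the desaturase, went from 1197 to 3607 CPM. From OPC to COP, 3 of 5 tested efflux, storage and turnover genes were called lower, where 15.2% of all genes were, the transporters Abcg1 (-2.18) and Abca1 (-1.04) and the lipoprotein Apoe (-1.36). The summed astrocyte markers moved with them, at 1979 CPM in OPCs, 744 in COPs and 1303 in oligodendrocytes, beside Apoe at 1029, 375 and 832 CPM, and their part in these calls was not tested.

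Oligodendrocytes were next compared with astrocytes. Fdps was called higher in oligodendrocytes (1.53 ± 0.14, SE, adjusted p = 9.41e-14, 4 of 4 mice), 1 of 8 where 12.8% of 10666 genes were called higher and 19.1% lower, and none of the 8 was called lower. Hmgcs1 (0.86) and Cyp51 (0.56) passed the adjusted p higher and Msmo1 lower (-0.60 ± 0.12, adjusted p = 1.53e-05, lower in 4 of 4 mice), short of the fold limit. Sqle, Idi1, Fdft1 and Insig1 did not pass, the largest of them being Sqle at -0.27 ± 0.16. With plain library totals the median gene stood at -0.22, Sqle (-0.47) and Fdft1 (-0.37) then passed lower and Insig1 changed sign.

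OPCs differed from astrocytes in the same directions for Fdps and Msmo1. Msmo1 (-1.30 ± 0.14, SE, adjusted p = 1.15e-12) and Insig1 (-1.09 ± 0.15, adjusted p = 3.50e-09) were called lower in OPCs, each in 4 of 4 mice, 2 of 8 where 12.6% of 8172 genes were called lower and 11.8% higher. The count was 4 (1 higher, 3 lower) with the cells of highest doublet score left out. Fdps, at 0.99 ± 0.19 (adjusted p = 1.04e-05, 4 of 4 mice), fell just short of the fold limit on the higher side. Fdft1 (-0.95) and Hmgcs1 (-0.52) passed the adjusted p lower. With thinned sums Fdps (0.51), Fdft1 (-0.53) and Hmgcs1 (-0.51) missed it. With plain library totals the median gene stood at 0.34 and the 1 call was Fdps on the higher side (1.31), while Msmo1 (-0.98) and Insig1 (-0.76) passed the adjusted p but not the fold limit. Sqle (0.55) then passed the adjusted p higher and Hmgcs1 (-0.20) missed it. The count was also 1 without mouse 4, the mouse with the fewest UMIs of Insig1 in OPCs, and Cyp51 then passed the adjusted p lower (-0.79). Both comparisons share the astrocyte sums.

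Tanycytes, close relatives of astrocytes, had less of most of the 8 genes, at early and later steps. Msmo1 (-1.48 ± 0.11, SE), Insig1 (-1.15 ± 0.11) and Fdft1 (-1.10 ± 0.14) were called lower than in astrocytes, each in 4 of 4 mice and with adjusted p of at most 1.10e-08. That was 3 of 8 where 11.5% of 10917 genes were called lower and 10.8% higher, and 5 of 8 without mouse 3. Cyp51 (-0.98), Idi1 (-0.91) and Hmgcs1 (-0.37) passed the adjusted p lower. Sqle (-0.22 ± 0.15, adjusted p = 0.233) and Fdps (-0.32 ± 0.17, adjusted p = 0.119) did not pass. The median over the 8 was -0.95, beside -0.03 over all genes. Of the other synthesis genes 7 of 15 were called lower and none higher, among them Mvd (-2.27) and Dhcr7 (-1.75).

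Ependymal cells were low in all of the genes but Sqle. Against astrocytes 7 of 8 were called lower, where 14.6% of 9564 genes were called lower and 18.7% higher. Insig1 was lowest at -2.89 ± 0.18 (SE, adjusted p = 9.49e-12), followed by Idi1 (-2.17), Msmo1 (-2.13), Cyp51 (-2.04), Fdft1 (-1.75), then Hmgcs1 and last Fdps (-1.23). In all 7 the ranges over mice did not overlap. Sqle was at 0.25 ± 0.22 (adjusted p = 0.333), and at -0.02 without mouse 30, whose ependymal cells had the highest Sqle (88.6 CPM). Of the other synthesis genes 10 of 14 tested were called lower, led by Dhcr7 (-3.55) and Mvd (-2.87), and of the fatty acid genes 8 of 9. The 7 calls stayed at 7 without any 1 mouse, without TMM scaling and with DESeq2.

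Tanycytes and ependymal cells, which line the same ventricle, also differed. Insig1 (1.76 ± 0.18, SE, adjusted p = 2.49e-12), Idi1 (1.29 ± 0.27), Hmgcs1 (1.15 ± 0.14) and Cyp51 (1.01 ± 0.30) were called higher in tanycytes, 4 of 8 where 7.37% of 9855 genes were called higher and 14.1% lower. Idi1 was higher in 3 of 4 mice, the other three genes in 4 of 4. Cyp51 lay at the limit and missed the adjusted p with DESeq2, without mouse 3 and without mouse 34. Fdps (0.94), Fdft1 (0.69) and Msmo1 (0.69) passed the adjusted p higher, Fdft1 not without mouse 34. Sqle alone passed it lower, at -0.45 ± 0.18 (adjusted p = 0.0383, lower in 3 of 4 mice), and not without mouse 3 (-0.38) or mouse 30 (-0.24), nor with DESeq2, with thinned sums or without the cells of highest doublet score. Fdps and Fdft1 also missed the adjusted p with DESeq2, and Idi1, Cyp51 and Fdft1 with thinned sums.

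Endothelial cells had the lowest summed level. Against astrocytes 7 of 8 were called lower, where 18.1% of 8860 genes were called lower and 17.9% higher. Msmo1 differed by -2.74 ± 0.17 (SE, adjusted p = 7.83e-31), Sqle by -2.26 ± 0.30 (adjusted p = 3.08e-11) and Insig1 by -1.92 ± 0.16 (adjusted p = 7.13e-22). Fdps did not pass (-0.41 ± 0.25, adjusted p = 0.158), but passed lower without mouse 30 (-0.63), the mouse with most Fdps in these cells. Astrocyte marker RNA was also counted in other types: the summed astrocyte markers stood at 13.6% of their astrocyte level in endothelial cells and 17.6% in microglia, Msmo1 at 14.9% and 16.2%, and Sqle at 20.6% and 15.5%. Hmgcs1 stood at 34.9% and 64.3% of its astrocyte level. In tanycytes the markers stood at 34.9% and Msmo1 at 34.5%, and in ependymal cells the markers stood at 20.04%, Insig1 at 13.4%, Msmo1 at 22.7%, Idi1 at 24.5% and Cyp51 at 25.4%. The markers did not share 1 ratio: in ependymal cells Aqp4 was near its astrocyte level (340 against 398 CPM), whereas Agt, at 1607 CPM in astrocytes, stood at only 134 CPM in tanycytes and 121 in ependymal cells, a smaller share than those of the genes just named. The part of free RNA in these levels was not tested. Of the 15 other synthesis genes 9 were called lower, among them Mvd (-2.70) and Dhcr7 (-2.02), and 2 higher, Lbr (2.47) and Ebp (1.04). Of 10 tested sensing and uptake genes 3 were called lower and 2 higher, among the latter the sterol carrier Stard4 (2.35).

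**Figure D3:**
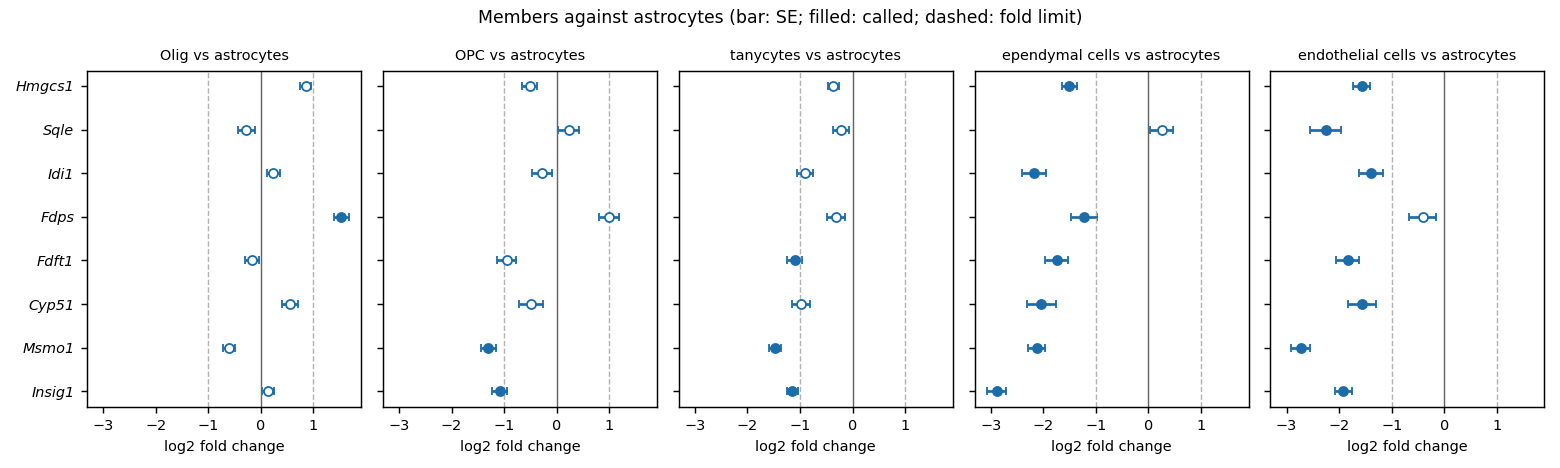
Log2 fold change of each gene in 5 cell types against astrocytes, with the SE as a bar; filled circles were called (adjusted p below 0.05 and past the dashed lines at -1 and 1). Ependymal and endothelial cells have 7 of 8 filled circles below 0, with Sqle the exception in ependymal cells and Fdps in endothelial cells.

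Insig1 differed from the enzymes in how it varied between mice. In astrocytes mice 3, 4, 30 and 34 stood at 203, 190, 92.1 and 254 CPM, and in oligodendrocytes at 192, 145, 152 and 238 CPM. Mice 3 and 34, the mice with the most cells, both lay above mice 4 and 30 in 6 of 7 types, leaving out microglia and VLMC. No other of the 8 genes did so in more than 3 types. Of 3335 genes with a mean of at least 50 CPM, 108 (3.24%) did so in at least 6 of 7. For 68 (2.04%), mice 3 and 34 both lay below mice 4 and 30 in at least 6 of 7. Both shares are for this 1 grouping of the mice, and other groupings were not counted. Within types, the deviations of Insig1 from the type mean were set against those of the mean of the other 7 over 32 sums. Pearson r was -0.41 for Insig1 and between 0.01 and 0.54 for the enzymes. Unlike the order of mice above, these 32 sums included microglia, where Insig1 had 1 UMI in mouse 4 and at most 13 in a mouse. The r without microglia was not computed. These sums share mice and libraries, and the part of the cell number per library was not tested.

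**Figure D4:**
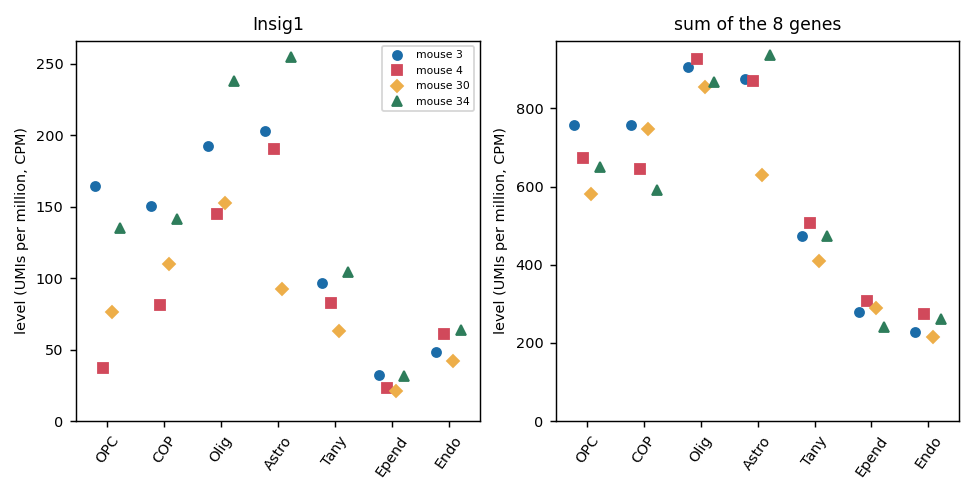
Level (CPM, linear axis from 0) of Insig1 (left) and of the 8 genes summed (right) in 7 cell types, 1 symbol per mouse. Mice 3 and 34 are above mice 4 and 30 for Insig1 in all of these types but endothelial cells, whereas the summed level shows no such order.

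The genes whose levels across types and mice were most like the mean of the 8, by Pearson r of log2(CPM + 10) over 33 sums and 7167 genes, were Kif1a (0.86), Tecr, Gramd1b, 0610007P14Rik, 4933431E20Rik, Cisd1, Thsd7a, Syt11, Gnao1 and Serinc1 (0.82). Among the 8, each gene had an r with the mean of the other 7 between 0.48 for Sqle and 0.85 for Idi1 and Msmo1. By deviations from the type means, over 32 sums, the nearest 10 included Pdzd2 (0.88), Rnf138, Adrm1, Phactr1, Elfn2, Rab3gap2, R3hdm2, Metap2 and Kctd4 (0.71). Of this second list, only 1 to 3 of the 10 genes recurred when 1 mouse was left out. These correlations are descriptions, since sums of 1 mouse share a library.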

How the data were processed

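Libraries were made by the authors with a 10x Genomics 3′ v2 kit. The submitters' processing notes name Cell Ranger 1.2 and Seurat and the builds GRCm38, mm10 and GRCh38, with no role given. The deposited UMI counts per gene and cell, whole numbers, and the authors' cell type labels were used. The UMI totals of all 20151 cells equalled the listed totals. The authors' mitochondrial percent and doublet score, a deposited fraction, only described or filtered cells. The depth-corrected matrix and 50172 cells of 12 libraries of other groups were not used.

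Counts were summed per mouse and type, with at least 20 cells a sum, and compared in 9 pairs with edgeR 4.0.16 (R 4.3.3) quasi-likelihood F tests: filterByExpr, TMM, mouse as block because both types come from the same animals, and Benjamini-Hochberg adjustment over all genes tested. The SE was derived from the F statistic. DESeq2 1.42.0 was an alternative. The scripts were tested on simulated data. Counting error grows as UMIs fall, to 1 UMI in some microglia sums.

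The 8 genes and the other lists were chosen with earlier results of these data known. Named were all 8, at most 3 called genes of largest change per other list and comparison, and the 10 genes of highest r by each measure; Mvd from COP to oligodendrocyte and Ebp in endothelial cells were added after their values were seen. Some genes that met the rule are not reported here. Genes were located with GENCODE M21 on GRCm38. Fdft1 and Cyp51 overlap Ctsb and Akap9 on the opposite strand.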

Additional observations from a re-analysis of the deposited data

Results flagged for a closer look

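Of 64 groups of 4 mice (8 genes in 8 types), 3 held 1 mouse far from the other three by Dixon's criterion, where chance alone gives about 5%. Sqle in OPCs was 45.9 CPM (20 UMIs) in mouse 34, while the other three mice had 76.4 to 82.0 CPM. Cyp51 in OPCs was 61.5 CPM (15 UMIs) in mouse 4, against 34.4 to 38.2 CPM. Cyp51 in microglia was 8.42 CPM in mouse 34, which is 1 UMI, against 20.3 to 22.5 CPM.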

How the results depend on the processing

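Of 108 recomputed counts of called members, 95 stayed within 1.5 times the reported count. Dropping the fold limit gave 2 (COP against OPC), 6 (oligodendrocytes against COP), 8 (oligodendrocytes against OPC), 4 (oligodendrocytes against astrocytes), 5 (OPC against astrocytes), 6 (tanycytes against astrocytes) and 8 (tanycytes against ependymal cells). Leaving out the 10% of cells of highest doublet score gave 4 for OPC against astrocytes. Leaving out 1 mouse gave 0 to 1 for oligodendrocytes against COP (1 without mouse 3), 1 to 3 for OPC against astrocytes (1 without mouse 4) and 3 to 5 for tanycytes against astrocytes (5 without mouse 3). Library totals without TMM, an alternative chosen after seeing the data, gave 0 for oligodendrocytes against OPC and 1 for OPC against astrocytes, and moved the share of calls that were higher from 41.6% to 23.2% and from 48.4% to 65.4%; for oligodendrocytes against COP the share went from 51.7% to 33.4%. The cause was not tested.

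Of 792 recomputed fold changes 714 kept direction and side of the threshold, 58 lost and 7 gained the threshold and 13 changed sign, none of them past the threshold in the alternative. Msmo1 in COP against OPC became -0.0126 with DESeq2, -0.0745 thinned to equal totals and -0.0890 without TMM, and ranged from -0.137 to 0.153 with 1 mouse left out (below 0 without mouse 3 or 30). Fdft1 there ranged from -0.379 to 0.0506 (above 0 without mouse 34). Cyp51 in oligodendrocytes against COP became -0.34 thinned and -0.10 without TMM. Without TMM, Fdps became -0.00306 (oligodendrocytes against OPC), Insig1 -0.0617 (oligodendrocytes against astrocytes) and Idi1 0.0352 (OPC against astrocytes). Sqle in ependymal cells against astrocytes ranged from -0.0202 to 0.498 (below 0 without mouse 30).

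Pairing by mouse follows from types sharing an animal. With no replicate block, Idi1 and Fdps in oligodendrocytes against OPC, Hmgcs1 in tanycytes against astrocytes and Sqle in tanycytes against ependymal cells missed the adjusted p, Msmo1 in COP against OPC became -0.00170, and counts of called members stayed within 1.5 times, at 0, 0, 2, 1, 3, 3, 7, 4 and 7 in the order of the text.

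Counts of all genes called moved past 1.5 times with no fold limit in all 9 comparisons (by 1.63 to 2.27 times; COP against OPC, for example, went from 1574 to 2768), with 1 fit over all types for COP against OPC (2386), and thinned for oligodendrocytes against COP (2010 to 1247) and OPC (2291 to 1482), since thinning leaves fewer UMIs.

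Counted as UMIs per cell, 2 of 8 members kept their highest type. Of the 10 genes most like the members over all sums, 6 recurred with log2(CPM + 1) and 5 to 7 without 1 mouse (5 without mouse 30, 6 without mouse 34). By deviations 4 recurred with log2(CPM + 1), 5 with a minimum of 5 CPM and 1 to 3 without 1 mouse (1 without mouse 4, 2 without mouse 34, 3 without mouse 3 or 30). Microglia and VLMC, with few UMIs, were in none of the 9 comparisons.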
